A study of Rattus norvegicus with 6 samples.

Results

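The enzymes that turn glucose into lactate were read on 6 Affymetrix rat expression arrays of brain capillary RNA from stroke-prone spontaneously hypertensive rats (SHRSP), an inbred strain with high blood pressure and strokes. The members were all probe sets, other than those whose name begins with AFFX, that the array's annotation gives to Hk1, Pfkfb1, Aldoa, Tpi1, Gapdh, Pgk1, Pgam1, Eno1, Ldha or Pkm. That rule found 19 of 8740 probe sets. Of the 10 genes, 7 had probe sets of their own (16 probe sets, of 4736 genes named on the array). The other 3 genes, Tpi1, Gapdh and Ldha, were each read by 1 probe set that the annotation also gives to copies of the gene, so those 3 probe sets cannot be assigned to a single gene and are named below with their copies.

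The rats were 6 weeks old by the labels. A control group was compared with a group given lisinopril, an inhibitor of the angiotensin-converting enzyme (ACEI, 6 mg/kg per day), and a group given olmesartan, a blocker of the angiotensin type 1 receptor (ARB, 4 mg/kg per day by mouth). All 3 groups hold 2 arrays. The labels also name 1% NaCl without saying whether it was the control treatment or was given to all rats. Nothing in the labels says whether an array holds 1 rat or a pool, so p-values measure the spread between these arrays. How long the drugs were given is not stated in those labels.

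Glycolysis splits glucose in the cytosol. Hexokinase traps glucose in the cell, the phosphofructokinase step commits it and is tuned by the bifunctional Pfkfb enzymes, aldolase and triose phosphate isomerase make trioses, and the later enzymes earn ATP before lactate dehydrogenase regenerates NAD. Brain endothelium is known to take up glucose through Slc2a1 and to rely heavily on glycolysis, and most genes of the pathway are known targets of the hypoxia-inducible factors. Several of the enzymes, Gapdh above all, are commonly used as reference genes, and Affymetrix placed extra probe sets for Gapdh and Hk1 on the array as quality controls.

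Upstream sequences are shown for the members whose data come up most often below, Aldoa and Eno1, and for Ldha and Pgam1. Those of Ldha and Pgam1 carry ACGTG, 1 form of the core letters of the hypoxia-inducible factor's site and the only form searched. The sequences are the 250 bases before the outermost listed start site in the RefSeq promoter table (build GRCr8), written 5′ to 3′ on the gene's strand, with ACGTG or its reverse CACGT in capitals.
Aldoa, chr1:190838022-190838271, strand minus: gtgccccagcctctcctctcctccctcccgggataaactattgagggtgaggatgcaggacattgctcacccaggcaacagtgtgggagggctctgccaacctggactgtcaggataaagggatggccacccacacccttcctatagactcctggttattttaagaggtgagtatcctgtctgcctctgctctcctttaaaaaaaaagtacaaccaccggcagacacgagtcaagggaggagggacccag
Eno1, chr5:166002617-166002866, strand plus: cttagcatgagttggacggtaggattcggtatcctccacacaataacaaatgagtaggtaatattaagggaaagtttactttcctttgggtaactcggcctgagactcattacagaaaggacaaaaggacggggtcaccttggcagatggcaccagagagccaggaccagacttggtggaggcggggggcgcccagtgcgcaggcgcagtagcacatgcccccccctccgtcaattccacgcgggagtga
Pgam1, chr1:250672902-250673151, strand plus: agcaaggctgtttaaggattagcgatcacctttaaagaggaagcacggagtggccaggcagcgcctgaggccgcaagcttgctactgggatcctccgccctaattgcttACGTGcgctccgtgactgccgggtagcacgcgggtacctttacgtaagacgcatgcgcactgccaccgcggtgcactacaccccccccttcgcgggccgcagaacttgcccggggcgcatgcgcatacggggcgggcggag
Ldha, chr1:106507842-106508091, strand plus: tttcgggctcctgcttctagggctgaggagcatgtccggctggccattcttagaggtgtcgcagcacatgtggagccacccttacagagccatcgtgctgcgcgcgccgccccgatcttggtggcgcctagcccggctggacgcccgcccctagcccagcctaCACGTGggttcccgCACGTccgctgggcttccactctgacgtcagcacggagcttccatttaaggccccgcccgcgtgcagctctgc
The table held 13 windows for 9 of the 10 members, and Pgk1 was not matched. The letters were found on either strand in 5 of these 13 windows, in 1 window each of Hk1, Aldoa, Gapdh, Pgam1 and Ldha, against 16.6% of all 33469 windows. Ldha had 3 matches, at 87, 86 and 73 bases before the start, of which the first 2 overlap because their letters run into each other on opposite strands. Pgam1 had 1 match at 141 bases and Gapdh 1 at 121 bases before the start. A match describes the letters and shows no binding.

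The arrays differed from each other in ways that touch every result. The first control and first ACEI array share a run day and chip lot, and the other 4 arrays share a later day and another lot. By the file headers the first arrays of all groups share a fluidics protocol, and the second arrays share another. Between both controls Pearson's r of log2 values was 0.747 over 5244 probe sets, which are not independent, against 0.906 between the ACEI arrays and 0.880 between the ARB arrays. Of markers of the tissue, the 17 measured genes of brain endothelium had a summed intensity of 111799 and 196429 on the controls, 107347 and 127662 with ACEI, and 89941 and 103534 with ARB, and none of the 17 stayed below 90 on all arrays. The sum was carried by a few bright genes: the mean log2 value of the same 17 genes was lowest on control 2, at 10.09, against 10.38 to 11.39 on the rest, and Pecam1, an endothelial adhesion molecule, read 193.8 on control 2 and 5538.3 on control 1. The markers of other cells were present too. The 8 astrocyte genes summed to 25415 and 28468 on the controls, 37928 and 49324 with ACEI, and 12628 and 13563 with ARB, and the 4 red blood cell genes to 50122 and 163594, 48502 and 67743, and 62072 and 52762. In the same order the 6 oligodendrocyte genes summed to 14982 and 7942, 20016 and 20099, and 6374 and 6869. Microglia and macrophage markers (12 genes) gave 42077 and 35169, 21307 and 44109, and 14543 and 15801. Neuronal markers (15 genes) gave 4267 and 7842, 9704 and 8319, and 10558 and 14277. Pericyte and smooth muscle markers (12 genes) gave 44397 and 63089, 26903 and 26390, and 32704 and 34913. Of the 15 endothelial genes tested 13 were lower with ARB than with ACEI, where 43.5% of all probe sets were. In limma 0 were called, and 2 were lower at an unadjusted p under 0.05 (background of lower 6.71%, of either direction 22.3%). Of the other cells' genes tested, 6 of 6 for oligodendrocytes, 8 of 10 for microglia and macrophages and 4 of 6 for astrocytes were also lower. For neurons 8 of 11 and for pericytes and smooth muscle 9 of 11 were higher with ARB than with ACEI (background 56.5%). Red blood cell genes were split, with 2 higher and 2 lower. In bulk RNA, fewer cells of a type and less RNA per cell cannot be told apart, and the part of these markers in the results below was not tested.

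The extra control probe sets for Gapdh and Hk1 show that arrays also stood apart in these enzymes themselves. The Gapdh probe set at the 5′ end of the transcript read 15128.8 and 1069.4 in the controls, 19443.5 and 11637.8 after ACEI, and 4778.8 and 4486.1 after ARB. At the 3′ end the values were 14619.4, 7812.8, 18138.7, 18480.1, 7050.4 and 6370.3. The 3′ reading over the 5′ reading, which is higher where RNA is degraded or copied in part, was 7.31 for control 2 and elsewhere lay between 0.933 and 1.59. The Hk1 control at the 5′ end was also lowest in control 2 and next lowest with ARB, at 23.6 on control 2, 66.8 and 113.6 with ARB, 194 and 442.2 with ACEI and 347.1 on control 1. Its 3′ to 5′ ratio was 6.28 on control 2 and 1.78 to 3.44 elsewhere. Control 2 was lowest and the ARB arrays next lowest in 8 of these 9 control probe sets, those of beta-actin (Actb) included, the exception being the 3′ end of Gapdh, where control 2 lay above both ARB arrays.

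**Figure D1:**
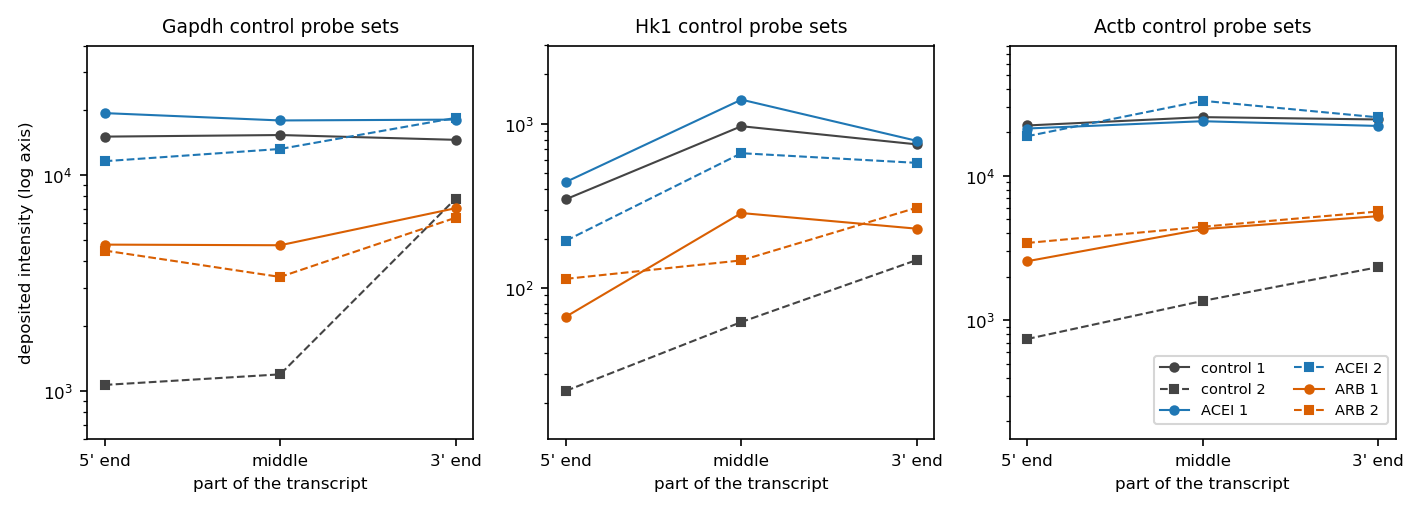
Deposited intensity (log axis) of the Gapdh, Hk1 and Actb quality control probe sets at the 5′ end, middle and 3′ end of each transcript, 1 line per array. Control 2 and the 2 ARB arrays lie below the other 3 arrays, and for Gapdh control 2 rises from 1069.4 at the 5′ end to 7812.8 at the 3′ end.

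Against this background no glycolysis probe set passed a test. Intensities plus 90 were put on a log2 scale, the dimmest 40% of probe sets by mean were set aside, and limma was fitted to the remaining 5244 with Benjamini-Hochberg adjustment at 0.05. Of the 19 member probe sets 15 were tested, and the 4 below the filter were 3 of Pfkfb1 and 1 of Pgk1. With both drugs pooled (RAS blockade versus control) limma called 0 members, where 0.00% of all probe sets were called, and 1 member had an unadjusted p under 0.05, where 5.07% of all did. That member was higher (background of higher 3.05%, of lower 2.02%). The count was likewise 0 for each drug against control and for the drugs against each other (each with 0.00% of all probe sets called). At an unadjusted p under 0.05 there were 0 members for ACEI versus control (background 2.59%, of which 1.20% higher and 1.39% lower). For ARB versus control there was 1 higher and 1 lower (background 17.3%, with 12.6% higher and 4.69% lower). For ARB versus ACEI there were 0 higher and 2 lower (background 22.3%, with 15.6% higher and 6.71% lower).

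The median difference of the 19 probe sets for RAS blockade was -0.13 on the log2 scale, against 0.13 for all probe sets tested and 0.22 for all 8740. For ACEI versus control it was -0.02 (all tested: -0.04) and for ARB versus control -0.30 (all tested: 0.18). These medians depend on the scale of the arrays, since the median of all 8740 for ARB versus control was 0.43 as deposited, 0.01 after quantile and -0.00 after cyclic loess normalization, where the 19 members stood at -0.20 and -0.18.

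**Figure D2:**
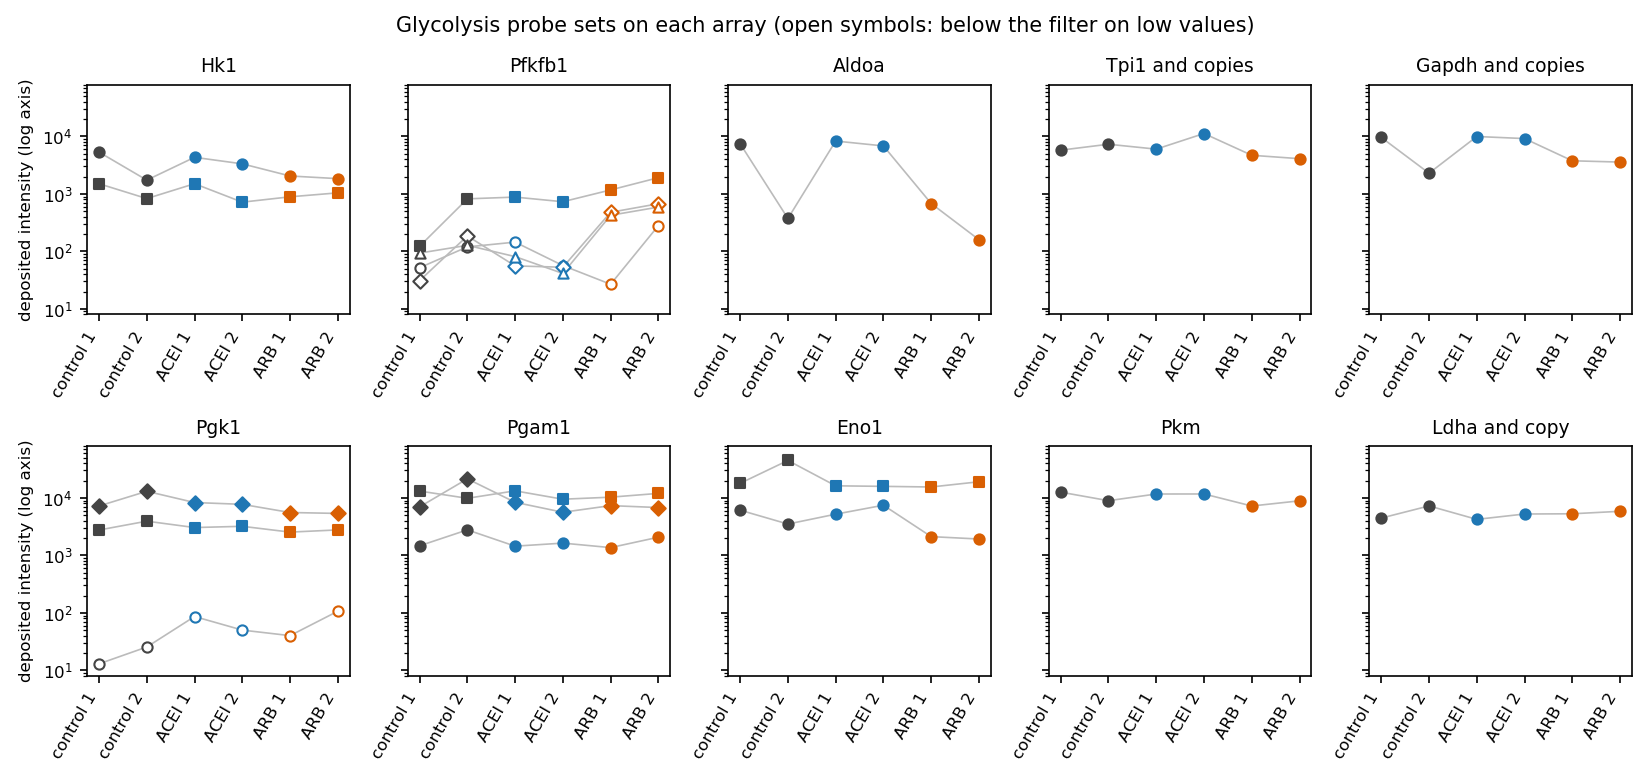
Deposited intensity (log axis) of each glycolysis probe set on the 6 arrays, 1 panel per gene, with 1 symbol shape per probe set, grey lines joining the values of a probe set, and open symbols for probe sets below the filter. Aldoa drops to 373.7 on control 2 and to 680.5 and 159.7 on the ARB arrays. The Pkm probe set stays between 7229.4 and 12596.1, and the Ldha probe set between 4233.5 and 7254.1. For Pgam1, S63233_at stays between 9490.4 and 13281.1, and S63233_g_at is highest on control 2, at 21465.7.

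Hexokinase 1 (Hk1), which phosphorylates glucose at the entry to the pathway and is the hexokinase of brain, had 2 probe sets. The first (rc_AI012593_at) read 5328.0 and 1737.1 on the controls, 4329.8 and 3333.0 with ACEI, and 2049.2 and 1842.5 with ARB. Both ARB arrays lay below both ACEI arrays, while the controls spanned the whole range. The difference was 0.31 ± 0.58 (SE, 2 arrays per group) for ACEI versus control, -0.63 ± 0.58 for ARB versus control and -0.94 ± 0.58 for ARB versus ACEI, the last with an adjusted p of 0.373 in limma. The second probe set (U27319exon_at) read 1502.2 and 829.2, 1503.7 and 718.2, and 890.0 and 1042.7, so all groups overlapped, and its ARB versus ACEI difference was -0.11 ± 0.53. The 2 probe sets therefore did not give the same size of difference between the drugs.

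Pfkfb1 encodes an isozyme of the bifunctional enzyme that makes and breaks down fructose 2,6-bisphosphate, the activator of phosphofructokinase, and it is best known from liver and muscle. Its brightest probe set (M27886exon_at) read 122.7 and 820.2 on the controls, 879.8 and 730.7 with ACEI, and 1171.9 and 1914.2 with ARB. The ARB arrays were the highest, control 1 alone was low, and control 2 lay among the ACEI arrays. The differences were 1.44 ± 0.60 for RAS blockade (adjusted p = 0.863 in limma) and 1.85 ± 0.69 for ARB versus control (adjusted p = 0.251 in limma). Without control 2 the ARB difference was 2.90 (adjusted p = 0.0499 in limma, with control 1 as a lone control assumed to vary like the other arrays), and without control 1 it was 0.81.

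The other 3 probe sets of Pfkfb1 were below the filter and not tested. M27886exon_g_at read 31.0 and 185.5 on the controls, 55.9 and 53.0 with ACEI, and 478.8 and 674.4 with ARB. X15580complete_seq_s_at read 93.4 and 127.5, 81.1 and 41.3, and 424.7 and 589.7. In both the ARB arrays lay above the other 4 arrays, and the ARB minus ACEI difference was 2.19 and 1.98. The fourth (J04197_i_at) read 52.0, 119.7, 144.9, 56.7, 26.8 and 280.5 in the order of control, ACEI and ARB arrays, and did not separate the groups. Probe sets near the bottom of the scale were higher on the ARB arrays in general: the median over the whole array was 485.7 and 493.8 with ARB and 244.9 to 353.4 without. The part of this shift in the Pfkfb1 values, and in the ARB values of Pfkfb4, Slc2a3, Slc16a7, Gpd2, Egln3 and Igfbp3 given below, was not tested.

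Aldolase A (Aldoa), which splits fructose 1,6-bisphosphate, had the widest range of all members. Its only probe set (rc_AA924326_s_at) read 7446.8 on control 1 and 373.7 on control 2, 8306.9 and 6832.5 with ACEI, and 680.5 and 159.7 with ARB. Control 1 lay with the ACEI arrays and control 2 between the ARB arrays. The difference for ARB versus ACEI was -4.12 ± 1.14 (17.4-fold lower with ARB, adjusted p = 0.135 in limma), with a 95% interval from -6.72 to -1.51. Within the later run day ARB minus ACEI was -3.98. Against control the difference was 2.03 ± 1.14 for ACEI and -2.09 ± 1.14 for ARB, and these rest on which control is used. On the first run day the ACEI array exceeded its control by 0.16, and on the later day by 3.90, while the mean of both ARB arrays, also run on that day, differed from its control by -0.08.

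The calls for Aldoa follow the control used. Without control 1 ACEI versus control was 4.04 (adjusted p = 0.0278 in limma), and without control 2 ARB versus control was -4.10 (adjusted p = 0.0499 in limma). In both fits a lone control array is assumed to vary like the other arrays. ARB versus ACEI passed in limma without control 1 (adjusted p = 0.0209) and without control 2 (adjusted p = 0.0242), in a fit of only the ACEI and ARB arrays (adjusted p = 0.0193) and with array weights (adjusted p = 0.0287), at an unchanged -4.12. Those fits called many other probe sets, namely 334, 316, 406 and 518 of 5244 in that order, and the fits of each drug against a lone control called 256 for ACEI and 91 for ARB. Over all 17 alternatives the difference ran from -4.93 to -3.04. The upstream sequence of Aldoa printed above holds no match to the letters searched, and another of its 3 windows holds 1.

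Triose phosphate isomerase (Tpi1), which interconverts the trioses, shares its probe set rc_AI104399_at with the copies Tpi1l1 and Tpi1l2. It read 5765.7 and 7309.5 on the controls, 6005.7 and 11231.3 with ACEI, and 4697.1 and 4099.0 with ARB. Both ARB arrays lay below the other 4 arrays. The difference was -0.56 ± 0.49 for ARB versus control and -0.89 ± 0.49 for ARB versus ACEI (adjusted p = 0.317 in limma).

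Glyceraldehyde 3-phosphate dehydrogenase (Gapdh), the NAD-linked step, shares its probe set M17701_s_at with Gapdh-ps118 and Gapdhl10. It read 9598.7 and 2291.1 on the controls, 9964.6 and 9171.5 with ACEI, and 3768.1 and 3576.3 with ARB. The order of the arrays was that of the middle Gapdh control probe set, with control 2 lowest and the ARB arrays next. The difference was 1.01 ± 0.66 for ACEI versus control, -0.35 ± 0.66 for ARB versus control and -1.36 ± 0.66 for ARB versus ACEI (adjusted p = 0.258 in limma). Within the later run day ARB minus ACEI was -1.30. ARB versus control was -1.37 without control 2 and 0.66 without control 1, and 0.01 after cyclic loess normalization, so its sign is not settled.

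Phosphoglycerate kinase 1 (Pgk1), the first step that makes ATP, had 3 probe sets. The brightest (rc_AA892797_at) read 7241.3 and 13035.4 on the controls, 8314.8 and 7730.0 with ACEI, and 5572.5 and 5372.6 with ARB. The ARB arrays were below all others and control 2 was above all others. The difference was -0.27 ± 0.48 for ACEI and -0.82 ± 0.48 for ARB versus control (adjusted p = 0.393 in limma). M31788_g_at read 2764.7 and 3939.0, 3051.7 and 3206.5, and 2541.7 and 2775.7, with an ARB versus control difference of -0.30 ± 0.45. M31788_at lay between 13.0 and 106.9 on all arrays and was not tested.

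Phosphoglycerate mutase 1 (Pgam1), which moves the phosphate group ahead of enolase, had 3 tested probe sets, and none separated the groups. S63233_at read 13155.9 and 9849.9 on the controls, 13281.1 and 9490.4 with ACEI, and 10302.2 and 11985.2 with ARB. Its difference was -0.02 ± 0.46 for ACEI versus control (95% interval -1.08 to 1.04) and -0.03 ± 0.46 for ARB versus control (-1.09 to 1.02), so changes of about 2-fold in either direction remain within the interval. S63233_g_at read 6984.2 on control 1, 21465.7 on control 2 and between 5627.8 and 8389.8 on the treated arrays. Its RAS blockade difference was -0.81 ± 0.52, and -0.00 without control 2. rc_AI169417_s_at read 1469.2 and 2780.0 on the controls and 1366.5 to 2071.9 on the treated arrays.

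Enolase 1 (Eno1), which makes phosphoenolpyruvate, was read by 2 probe sets of 1 accession that disagreed for ARB versus ACEI. X02610_at read 6113.1 and 3511.7 on the controls, 5213.0 and 7462.7 with ACEI, and 2120.8 and 1927.1 with ARB. Both ARB arrays lay below the other 4 arrays. Its difference was -1.16 ± 0.49 for ARB versus control (adjusted p = 0.279 in limma) and -1.58 ± 0.49 for ARB versus ACEI (adjusted p = 0.143 in limma, 95% interval -2.70 to -0.46). The second difference was -1.84 within the later run day, ran from -1.84 to -1.31 over the 17 alternatives, and passed in limma only with array weights (adjusted p = 0.0433), where 518 of 5244 probe sets did.

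X02610_g_at, the other enolase probe set, read 17941.6 and 44839.8 on the controls, 16236.1 and 15882.9 with ACEI, and 15488.5 and 19092.1 with ARB. Here the treated arrays and control 1 were alike and control 2 alone was high. Its ARB versus ACEI difference was 0.10 ± 0.54 (95% interval -1.14 to 1.34). For ARB versus control it was at -0.72 ± 0.54, below 0 like X02610_at and over all 17 alternatives (-1.38 to -0.06). The -0.06 was that without control 2, and ACEI versus control was at -0.82 ± 0.54. The size of the X02610_g_at difference thus rests on control 2, which was the lower control for X02610_at.

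Pyruvate kinase (Pkm), which yields pyruvate and ATP, read 12596.1 and 8950.9 on the controls, 11693.8 and 11709.9 with ACEI, and 7229.4 and 8896.2 with ARB (rc_AA818951_at). The ARB arrays were the lowest, by a narrow margin below control 2. The difference was 0.14 ± 0.46 for ACEI and -0.40 ± 0.46 for ARB versus control (adjusted p = 0.670 in limma, 95% interval -1.44 to 0.64). Lactate dehydrogenase A (Ldha), which turns pyruvate to lactate, shares its probe set M54926_at with Ldhal1. It read 4459.1 and 7254.1 on the controls, 4233.5 and 5248.4 with ACEI, and 5296.6 and 5849.0 with ARB. The difference was -0.27 ± 0.47 for ACEI and -0.03 ± 0.47 for ARB versus control, and 0.24 ± 0.47 for ARB versus ACEI, where the ARB arrays were above both ACEI arrays.

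**Figure D3:**
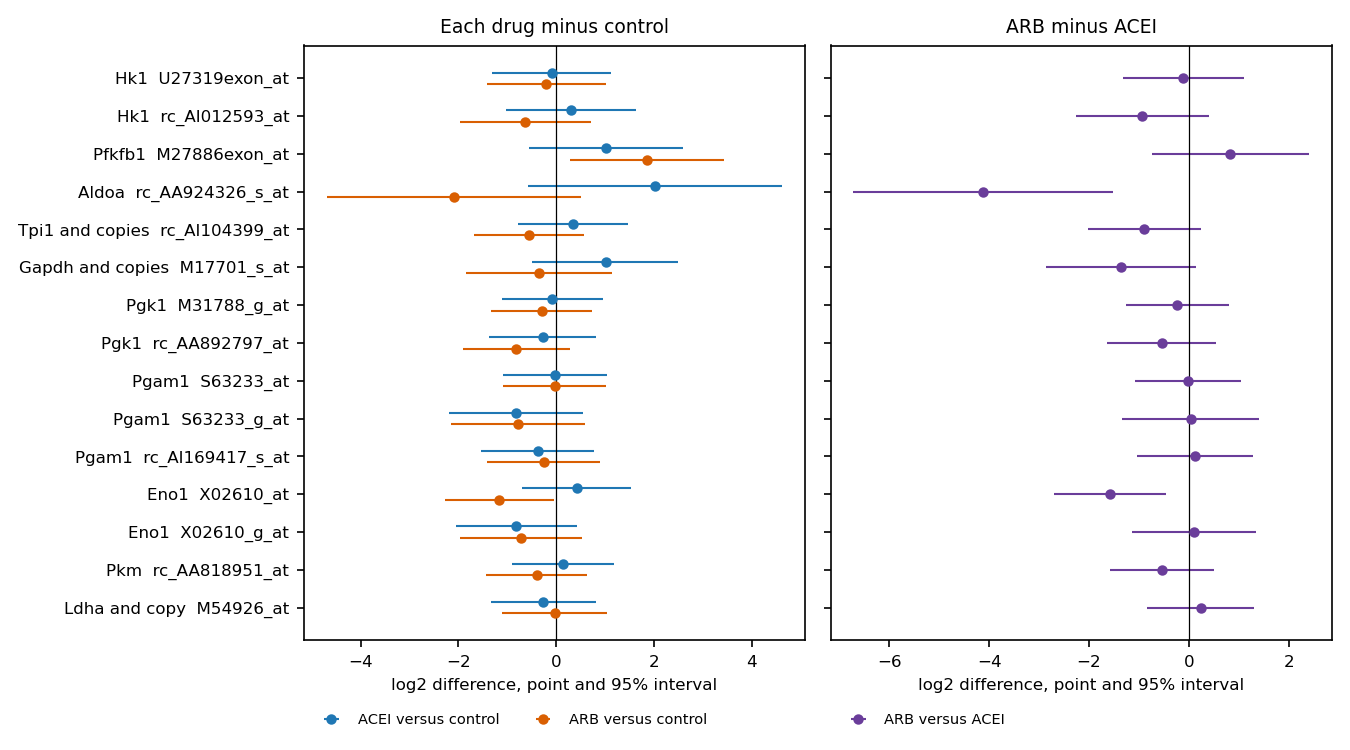
Log2 differences of the 15 tested glycolysis probe sets with their 95% intervals from limma, for ACEI and ARB minus control (left) and ARB minus ACEI (right), 2 arrays per group. Only the intervals of Pfkfb1 and the Eno1 probe set X02610_at in ARB minus control, and of Aldoa and X02610_at in ARB minus ACEI, leave out 0, before any adjustment.

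By direction, 13 of the 15 tested probe sets were lower with RAS blockade, where 40.4% of all probe sets were lower and 59.6% higher, but after quantile or cyclic loess normalization 9 were (background 52.4% and 49.0%). For ARB versus control 14 were lower, where 41.9% of all were lower and 58.1% higher, and 12 after quantile and 10 after loess normalization (52.8% and 50.0%). For ARB versus ACEI 10 were lower, where 43.5% of all were lower and 56.5% higher, and 9 and 8 after these normalizations (51.9% and 50.5%).

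The groups overlapped for all 15 with RAS blockade, where 4.63% of all probe sets lay wholly above and 3.72% wholly below the controls. In 8 of the 15 (53.3%) both ARB arrays lay below both ACEI arrays, against 25.3% of all probe sets, and in 2 (13.3%) both lay above, against 37.1%. Against control, both ARB arrays lay below both controls in 4 of 15 (26.7%), where 16.8% of all probe sets did, and above in 1, the Pfkfb1 probe set, where 33.4% did. The 4 were X02610_at of Eno1, rc_AA892797_at of Pgk1, the Pkm probe set and the Tpi1 probe set. These 15 passed a filter on low values, share arrays and in part share genes, so the counts are descriptions. For ACEI versus control 7 were higher and 8 lower (background 46.9% and 53.1%), and 1 of 15, X02610_g_at, lay below both controls on both arrays (background 11.9% below and 11.6% above).

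The difference between the controls ran in the same direction as that between the drugs for most members. They share no array, but run day and chip lot run the same way in both, since control 2, both ARB arrays and 1 of 2 ACEI arrays were run on the later day. Control 2 minus control 1 was -4.02 for Aldoa, -2.02 for the Gapdh probe set and -1.57 for the first Hk1 probe set, where ARB minus ACEI was -4.12, -1.36 and -0.94, and -3.98, -1.30 and -0.75 within the later run day. It was 2.10 for Pfkfb1 (M27886exon_at), where ARB minus ACEI was 0.83. The signs matched in 12 of the 15 tested members and in 59.0% of all 5244 probe sets. Across the 15 probe sets, which share genes and arrays, Pearson's r was 0.87 and Spearman's rho 0.81, and r was 0.76 without Aldoa. Across all 5244 probe sets r was 0.41 and rho 0.29. The Gapdh control at the 5′ end, which is not a member, was at -3.71 and -1.68, and the Hk1 control at the 5′ end at -1.94 and -1.12. RNA quality as read by the 3′ to 5′ ratios moved with control 2 in all 3 control genes. Between the drugs the Gapdh ratios overlapped (1.48 and 1.42 with ARB, 0.933 and 1.59 with ACEI), as did those of Hk1 (3.44 and 2.72 with ARB, 1.78 and 2.98 with ACEI). The beta-actin ratio was higher on both ARB arrays (2.05 and 1.65) than on both ACEI arrays (1.04 and 1.35), with 1.10 and 3.15 on the controls. The part of RNA quality in these differences was not tested.

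**Figure D4:**
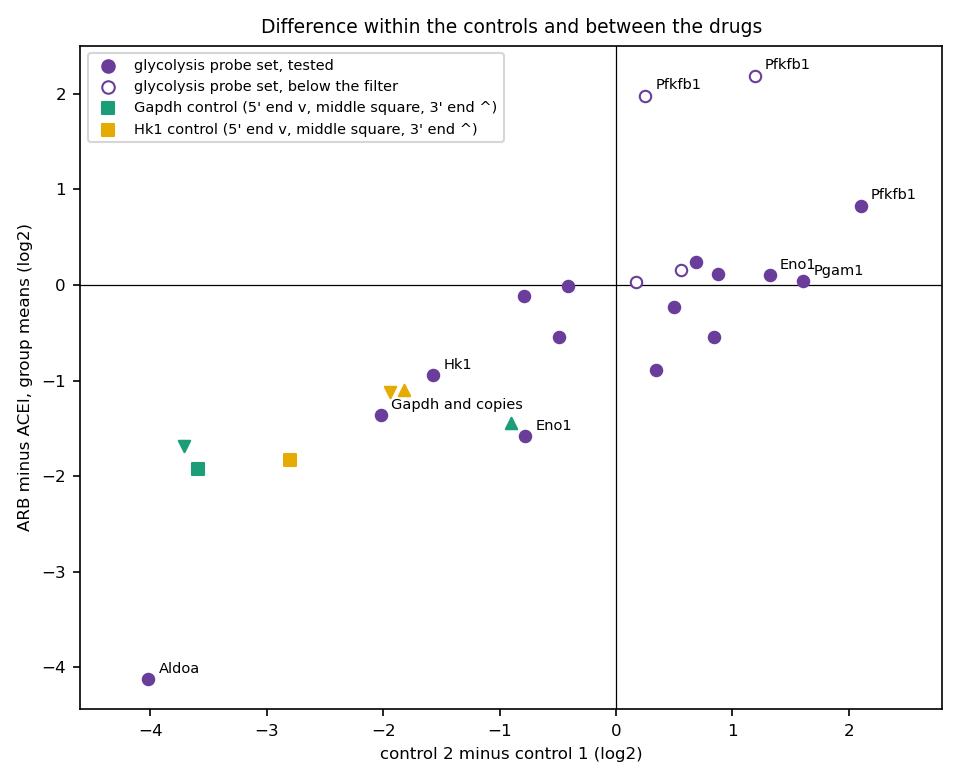
ARB minus ACEI (vertical, log2 difference of group means, 2 arrays each) against control 2 minus control 1 (horizontal, log2 difference of 2 arrays) for the 19 glycolysis probe sets and the Gapdh and Hk1 control probe sets. Aldoa lies at -4.02 and -4.12, and the control probe sets also lie below 0 on both axes.

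The other glycolysis genes had 13 measured of 21 listed, of which 7 passed the filter, 1 probe set per gene. In limma 0 were called in any contrast, and at an unadjusted p under 0.05 there were 0 for RAS blockade, 1 higher for ACEI, 0 for ARB, and 2 higher and 1 lower for ARB versus ACEI. The share of all probe sets was 5.07% in either direction for RAS blockade, 1.20% higher for ACEI and 17.3% in either direction for ARB. For ARB versus ACEI it was 15.6% higher and 6.71% lower. The aldolase isozyme Aldoc, typical of astrocytes, read 5187.7 and 2132.8 on the controls, 6322.0 and 14198.1 with ACEI, and 1529.2 and 1021.1 with ARB (M63656_s_at). The ARB arrays were the lowest, as for Aldoa, and ARB versus ACEI was -2.84 ± 0.61 (adjusted p = 0.126 in limma), with -3.58 ± 1.09 for its other probe set. The summed astrocyte markers given above, which include Aldoc, were also lowest with ARB. The mean log2 value of the same 8 genes was 9.70 and 9.99 with ARB, 9.93 on control 2 and 10.22 to 10.74 on the rest. The summed oligodendrocyte markers were lowest with ARB too. The part of astrocytes and of the other cell types was not tested.

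Hexokinase 2 (Hk2), the inducible hexokinase, gave opposite signs. M68971_at was at 0.24 ± 0.42 for RAS blockade and 1.22 ± 0.49 for ARB versus ACEI, and D26393exon_s_at at -1.45 ± 0.48 and -1.46 ± 0.55. For ARB versus control they were at 0.85 ± 0.49 and -2.18 ± 0.55. D26393exon_s_at, the dimmer of them, is outside the counts above. Its unadjusted p in limma was 0.0148 for RAS blockade and 0.00368 for ARB versus control. The lactate dehydrogenase subunit Ldhb, which favours lactate use, was at 0.08 ± 0.39 for RAS blockade (other probe set -0.25 ± 0.44). Pfkfb4, another bifunctional isozyme, was at 1.48 ± 0.47 for ARB versus ACEI (adjusted p = 0.146 in limma) and at 0.97 for ARB versus control. Taking the brightest probe set of each gene, the largest RAS blockade differences in this list were those of Pgam2 at 0.88, Eno3 at 0.71, Pfkfb3 at 0.54 and Ldhc or Pfkl at 0.27, and of these genes Pfkl alone passed the filter.

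Of 8 glucose and lactate carriers 7 were tested and 0 called. At an unadjusted p under 0.05, by the brightest probe set of each gene, there were 0 for RAS blockade, 1 higher for ACEI and 2 higher for ARB. For ARB versus ACEI 2 were higher and 1 lower. Of all probe sets 5.07% were so for RAS blockade, 1.20% higher for ACEI and 12.6% higher for ARB. For ARB versus ACEI 15.6% were higher and 6.71% lower. The monocarboxylate carrier Slc16a1, which moves lactate across the barrier, read 4254.9 and 747.2 on the controls, 7636.0 and 7724.0 with ACEI, and 2200.3 and 2561.6 with ARB. Its RAS blockade difference was 1.20 ± 0.63, and that of its other probe set 1.01 ± 0.44. Slc2a1, the glucose carrier of brain endothelium, was at -0.51 ± 0.44. Its other probe set, M13979_at, read 17553.5 and 13932.4 on the controls, 14630.3 and 24416.6 with ACEI, and 5105.1 and 4511.3 with ARB, so that both ARB arrays lay below the other 4, and ARB versus ACEI was -1.96 ± 0.48 (adjusted p = 0.128 in limma) against -0.11 ± 0.51 for S68135_s_at. Slc2a3, the neuronal glucose carrier, and Slc16a7 were at 0.45 ± 0.44 and 0.50 ± 0.39 for RAS blockade, and at 1.74 ± 0.50 and 1.77 ± 0.45 for ARB versus ACEI.

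Neighbouring pathways gave 0 calls as well. Of 10 measured genes of the pentose phosphate and pyruvate branch 8 were tested. By the brightest probe set of each, 0 had an unadjusted p under 0.05 in any contrast. The share of all probe sets was 5.07% for RAS blockade, 2.59% for ACEI, 17.3% for ARB and 22.3% for ARB versus ACEI. A dimmer probe set of Tkt (transketolase, named beyond the rule for named genes) read 1280.8 and 64.2 on the controls. It read 1210.1 and 1289.3 with ACEI, and 64.2 and 61 with ARB. Its ARB versus ACEI difference was -3.13 ± 0.88 (unadjusted p = 0.00670, adjusted p = 0.136 in limma), against -0.94 ± 0.45 for the brightest. By the brightest probe set of each gene the largest RAS blockade differences were those of Pdha1 (pyruvate dehydrogenase) at -0.72 ± 0.44, with 0.29 ± 0.54 for its other probe set, Taldo1 (transaldolase) at -0.46 ± 0.50, Pdha2 at 0.38 and Pdk1 at 0.30 ± 0.45. Of 10 genes of gluconeogenesis and glycogen 4 were tested, and 1 was higher at an unadjusted p under 0.05, Gpd2, the mitochondrial glycerol phosphate dehydrogenase, at 0.99 ± 0.42 (background 3.05%). By drug Gpd2 was at 0.33 ± 0.48 for ACEI and 1.65 ± 0.48 for ARB versus control, and at 1.32 ± 0.48 for ARB versus ACEI. In each of the last 2 contrasts it was the 1 gene higher at an unadjusted p under 0.05 (background 12.6% and 15.6%). For ACEI there were 0 (background 2.59%), and 0 genes of the list were lower in any contrast. Its other probe sets were, for RAS blockade, at 0.16 ± 0.47 and, below the filter, -0.53. Fbp2, Fbp1 and Gpd1, below the filter, were at 0.89, 0.63 and -0.48. Of 12 hypoxia-linked genes 11 were tested and 1 was lower at an unadjusted p under 0.05 for RAS blockade (background of lower 2.02%). That gene was Bnip3l, a mitophagy receptor also abundant in red cell precursors, at -1.43 ± 0.47. It read 9001.1 and 21023.4 on the controls and 4157.1 to 6649.3 on the treated arrays. By their brightest probe sets all 4 red blood cell genes were also lower for RAS blockade, where 40.4% of all probe sets were. Alas2 was at -2.12 ± 0.52, with 10011.2 and 9086.9 on the controls and 679.6 to 4309.7 on the treated arrays. The globins Hbb and Hbb-b1 were highest on control 2, like Bnip3l, and Alas2 and Slc4a1 were not. The part of red blood cells was not tested. The vasodilator peptide gene Adm was at -1.14 ± 0.60, Tfrc at 1.11 ± 0.79 and Hmox1 at -0.81 ± 0.42. Hif1a, which encodes the oxygen-regulated subunit, was at 0.77 ± 0.50, and is named beyond the rule for named genes. At an unadjusted p under 0.05, 1 hypoxia-linked gene was lower for ACEI (background 1.39%). For ARB 1 was higher and 1 lower (background 12.6% and 4.69%). For ARB versus ACEI 2 were higher and 0 lower (15.6% and 6.71%). Those 2, also named beyond the rule, were Egln3 at 1.58 ± 0.50 and Igfbp3 at 1.60 ± 0.55, with 0.30 (below the filter) and 1.47 ± 0.66 for their other probe sets. The median RAS blockade difference was 0.10 for the 12 hypoxia-linked genes, 0.24 for the other glycolysis genes, 0.17 for the carriers, -0.01 for the pentose phosphate and pyruvate branch and 0.13 for gluconeogenesis and glycogen, beside 0.22 for all 8740 probe sets.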

How the data were processed

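The deposited intensity of each probe set and array was on a linear scale (8799 probe sets, 0 values below 0). Its 2% trimmed mean, computed here, was 997.7 to 1002 per array, and the main fits added no further scaling. Software and background correction are not given in the sources used here. Run day, chip lot and other run settings were taken per the file headers. Genes came from the array's annotation: 7018 probe sets carried 1 symbol, 308 several and 1473 none, and 0 symbols were updated through the RefSeq gene table. The 59 control probe sets were not fitted. After adding 90 (close to the median above 0, 358.3, over 4) and taking log2, the dimmest 40% were left out. Group means were fitted in R 4.3.3 by limma 3.58.1, two-sided, with 5.49 prior and 3 residual degrees of freedom. Values are log2 differences ± SE of the model, and arrays, 2 per group, limit the precision. The code was tested on simulated data.

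All probe sets of the members are given. In 5 other lists, up to 4 genes with the largest RAS blockade difference are named, by their brightest probe set, and isozymes of the members. Members and lists were chosen with earlier results of these data known. Replicate numbers split the arrays by fluidics protocol. They did not otherwise pair the arrays: deviations of same-numbered arrays correlated between -0.02 and 0.05. Alternatives were other offsets, filters, normalizations, blocks, array weights, leaving out each array, a fit of the groups compared, and, chosen after seeing the data, the later run day alone. Python 3.11.15 with pandas 2.3.3 made the tables, and matplotlib 3.10.9 drew the plots.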

Additional observations from a re-analysis of the deposited data

Results flagged for a closer look

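The Pfkfb1 probe set X15580complete_seq_s_at lay on opposite sides of the controls with ACEI and with ARB. Its control and ACEI values were near the bottom of the scale. Both ACEI arrays (81.1 and 41.3) lay below both controls (93.4 and 127.5) and both ARB arrays (424.7 and 589.7) lay above them, with an ARB minus ACEI difference of 1.98 on the log2 scale. Against control the difference was -0.41 for ACEI and 1.57 for ARB. Of all probe sets tested, 11.9% lay wholly below the controls with ACEI and 33.4% wholly above them with ARB. X15580complete_seq_s_at was below the filter on low values, so its difference was not tested. Dim probe sets were higher on the ARB arrays in general, and the part of this shift here was not tested either.

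The antisense control probe sets of Gapdh, which enter no comparison, carried signal on the ARB arrays. The 5′ probe set read 3528.4 and 3528.9 with ARB, against 761.0 and 248.0 on the controls. The middle one read 4915.3 and 4601.6, against 249.0 and 668.8. The 3′ one read 1571.1 and 2057.9, against 186.7 and 459.2. On the ACEI arrays the 3 probe sets read between 216.2 and 656.2. The sense probe sets of Gapdh were lower on the ARB arrays than on the ACEI arrays.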

How the results depend on the processing

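The count of called glycolysis probe sets for RAS blockade was 0 under all 17 alternatives, and the median of the 19 probe sets ran from -0.18 to 0.11 over them. For ACEI versus control the count was 0 except without control 1, where it was 1 (Aldoa), so leaving out single arrays gave 0 to 1. For ARB versus control it was 0 except without control 2, where it was 2 (Aldoa and Pfkfb1), a range of 0 to 2. For ARB versus ACEI it was 2 with array weights (Aldoa and Eno1), 1 in a fit of only these groups, and 0 to 1 when single arrays were left out, with 1 without control 1 and 1 without control 2 (Aldoa each time). Over all 5244 probe sets the same fits called 256 (ACEI versus control), 91 (ARB versus control), and 518, 406, 334 and 316 (ARB versus ACEI, in the order given), against 0 as reported. The fits without a control array, and of only the drug groups, estimate the spread without the difference between the controls. Without 1 control the other is a lone array assumed to vary like the rest. With the replicate number, and so the fluidics protocol, as a block the count stayed 0 for all 4 contrasts. Aldoa in ARB versus ACEI then had an adjusted p of 0.0583 in limma. Deviations of same-numbered arrays were nearly uncorrelated, so this fit is given for completeness. Blocking on run day, the count was also 0 for all 4, as it was on the later run day alone, a fit chosen after seeing the data. Over the single probe sets the sign was the same throughout for 6 of 19 in RAS blockade, 6 in ACEI, 9 in ARB and 10 in ARB versus ACEI, and no called value changed sign.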
